A study of Rattus norvegicus with 18 samples.

Results

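The 4 genes described here are S100a4, S100a10, S100a11 and Anxa2, which encode 3 small proteins of the S100 family and annexin A2, the membrane-binding protein that S100a10 joins. They were found by gene symbol in the array's annotation, where each is 1 cDNA clone spotted 2 times, so they are 4 of 2304 clones. The data are log ratios from two-colour cDNA arrays of whole rat kidney. Sham-operated rats were set against ARF rats, whose kidneys had been ischemic for 52 min and had then been reperfused and left to recover for 35 days (ARF stands for acute renal failure). There were 6 sham and 6 ARF rats in 6 pairs named A to F, and each pair was put on 2 arrays with the dyes exchanged. Another 6 arrays, R1 to R6, set sham rats against one another. Strain, sex and age are not given in the sources used here, and the RNA came from the total kidney, so fewer cells of a type and less RNA per cell cannot be told apart in any value below.

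S100 proteins are small EF-hand proteins that mostly work as dimers and bind target proteins when calcium rises. S100a10 is the exception that has lost calcium binding: it forms a stable complex with annexin A2, which ties membranes to actin and at the cell surface gathers plasminogen and its activator. S100a11 can pair with annexins too, and S100a4, also called fibroblast-specific protein, binds non-muscle myosin and is abundant in fibroblasts and in migrating leukocytes. In healthy kidney these proteins are found in vessels, interstitial cells and some tubule segments, and they are known to be induced in injured tubules and in fibrosis.

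S100a10 and S100a11 are neighbours in the rat genome, with 0 protein-coding genes between them, while 63 lie between S100a11 and S100a4 on the same chromosome. Anxa2 lies on another chromosome. The proximal promoters are shown because S100a11 and Anxa2 had nearly the same mean log ratio (below), so the letters before their starts can be set beside those values. Each line gives the 150 bases before the transcription start, 5′ to 3′ on the plus strand, from RefSeq (build GRCr8), for the 3 members matched in the promoter table, and capitals mark the motifs searched on both strands: TGANTCA (AP-1), GGGCGG (the GC box) and TATAAA (the TATA box).
S100a4, chr2:178388379-178388528: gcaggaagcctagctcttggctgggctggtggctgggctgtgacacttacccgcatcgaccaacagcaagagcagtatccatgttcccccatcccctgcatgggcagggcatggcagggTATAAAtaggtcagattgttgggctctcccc
S100a11, chr2:181874982-181875131: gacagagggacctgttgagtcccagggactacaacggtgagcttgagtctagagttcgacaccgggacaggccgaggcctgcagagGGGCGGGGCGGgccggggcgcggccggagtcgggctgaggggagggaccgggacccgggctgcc
Anxa2, chr8:78986102-78986251: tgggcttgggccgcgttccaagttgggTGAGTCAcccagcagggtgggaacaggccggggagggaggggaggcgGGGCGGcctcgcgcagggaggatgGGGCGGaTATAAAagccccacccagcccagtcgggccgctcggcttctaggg
Anxa2 held an AP-1 match that begins at -123 (the base before the start being -1), GC boxes at -76 and -52 and a TATA box at -45. S100a11 held 2 GC boxes that share a base, at -64 and -59, and S100a4 a TATA box at -31. Windows of this length hold an AP-1 match in 3.69%, a GC box in 26% and a TATA box in 8% of the 33469 promoters in the table, so the only motif that S100a11 and Anxa2 share is a common one. A match is a run of letters, and no binding was measured.

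A log ratio above 0 is read here as higher in ARF. The labels state neither this direction nor the log base. On 5 of the 6 sham-sham arrays the values correlated with the difference of the 2 pairs concerned, over clones, in the sense that pair values are ARF over sham if the sham-sham values are channel 2 over channel 1 (r from 0.107 to 0.213, and -0.034 on R6). This ties the 2 kinds of array to 1 convention but cannot show which it is, and with the opposite one every sign below would turn. A difference of 0.5 would be 1.41-fold in base 2, 1.65-fold for natural logs and 3.16-fold in base 10. Of 4608 spots, between 1586 and 2786 had a value on an array of ARF against sham, and between 914 and 2232 on one of 2 sham rats. Spots without a value make up 57.1% of the table.

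The first comparison asked whether these genes still differ from sham kidneys weeks after the injury. S100a4 was higher in ARF kidneys, with a mean log ratio of 0.70 ± 0.23 (SD, n = 4 pairs), and above 0 in 4 of 4 pairs. S100a11 averaged 0.28 ± 0.40 and Anxa2 0.27 ± 0.37 (each n = 6), with 5 and 4 pairs above 0, and S100a10 averaged 0.063 ± 0.57 (n = 5) with 3 pairs above 0. Of the 4 genes, 1 rose, 0 fell and 3 did not pass the test (limma over 947 clones, Benjamini-Hochberg adjusted p under 0.05). The share of all tested clones that passed was 0.95%, with 0.317% higher and 0.634% lower. Every pair measured on both arrays was above 0, as for S100a4 in its 4, in 6.23% of clones, which had 4 to 6 such pairs. With the pair as a replicate block over the 12 arrays, 42 clones passed in place of 9, S100a4 again among them and the other 3 genes not. With a trended, robust moderation or with none, 0 clones passed (119 and 129 at an unadjusted p under 0.05), and S100a4 had an adjusted p of 0.24 and 0.22 (limma). Without pair B, where it has no value, its adjusted p was 0.051. Among the 947 means, S100a4 ranked 3rd from the top, S100a11 20th, Anxa2 22nd and S100a10 317th.

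**Figure D1:**
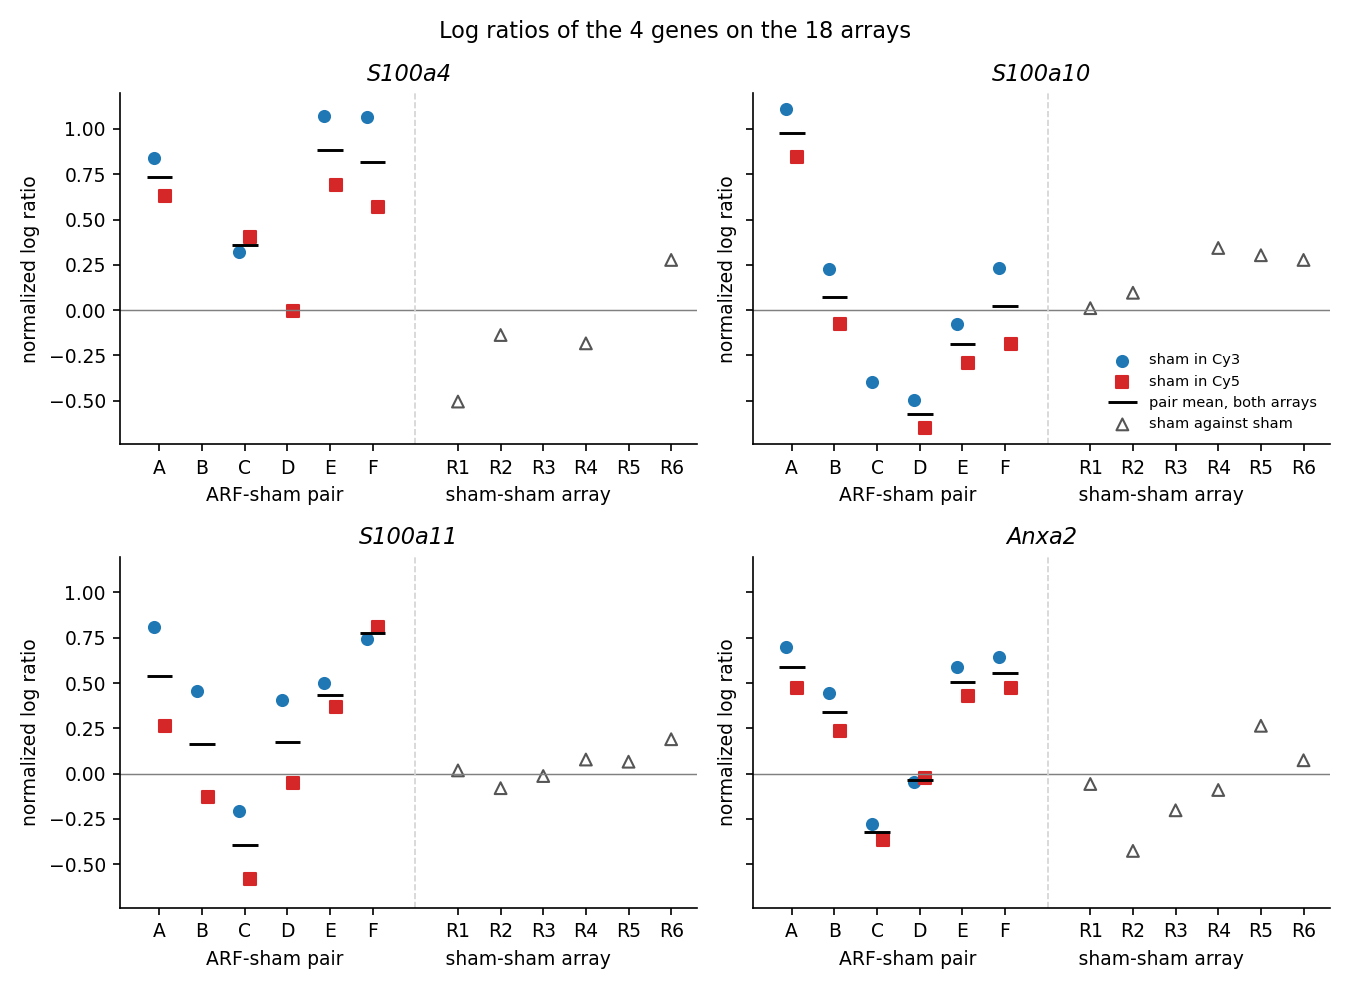
Normalized log ratio (log base not stated) of each gene on every array that has a value, as the mean of its spots. Circles are ARF-sham arrays with sham in Cy3, squares those with sham in Cy5, bars the mean of a pair measured on both, and triangles the sham-sham arrays R1 to R6. S100a4 has pair means of 0.36 or above in the 4 pairs measured on both arrays and lies at -0.004 on its single array of pair D, S100a10 runs from 0.975 in pair A to -0.57 in pair D, and S100a11 and Anxa2 lie below 0 in pair C.

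S100a4 had pair values of 0.74 in A, 0.36 in C, 0.88 in E and 0.82 in F. Pair B had no value on either array, and pair D only 1 spot on the array with sham in Cy5, at -0.004. The 4 pairs measured on both arrays thus lie on 1 side of 0, with C lowest, and the single spot of D is at 0. The gene's log ratio had a 95% interval of 0.48 to 0.92 and an adjusted p of 0.028 (limma), the 2nd smallest unadjusted p of all clones.

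The spots behind the S100a4 values were uneven. In pair C the duplicate spots on the array with sham in Cy3 read -0.16 and 0.80, the widest gap between duplicates of any member on any array (0.965), and the other array of that pair had 1 spot, at 0.40. In pair E the array with sham in Cy3 had 1 spot as well, at 1.07. Over the 9 arrays with both spots the median gap was 0.15. With pair D's single array kept, the mean was 0.56 ± 0.37 (n = 5) and the adjusted p 0.12 (limma), over 1250 clones tested in place of 947. The fit with the pair as a replicate block, which also uses that array, gave 0.60 (adjusted p = 0.0065). With clones of 3 or more pairs tested, leaving out pair A, E or F raised the adjusted p to 0.093, 0.11 or 0.12 (limma).

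S100a4 also had values away from 0 where sham rats were set against one another. The sham-sham arrays gave -0.50 on R1 (rat F against A), -0.14 on R2, -0.18 on R4 and 0.28 on R6, and no value on R3 and R5. The largest of these in size is below the values of pairs A, E and F and above that of pair C. The value of R4 is from 1 spot, and the spots of R6 read 0.11 and 0.44. Each value is from 1 array without a dye swap, so rat, dye and array error cannot be told apart in it. S100a4 was less often measured than the other members, with values on 9 of 12 ARF-sham arrays against 11 for S100a10 and 12 for S100a11 and Anxa2.

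Anxa2 was measured in both spots of all 18 arrays. Its pair values were 0.59 in A, 0.34 in B, -0.32 in C, -0.033 in D, 0.51 in E and 0.56 in F. Pairs A, B, E and F form a high group, D is close to 0, and C lies about as far below 0 as B lies above. The mean of 0.27 had a 95% interval of 0.013 to 0.53 before adjustment for the number of clones, an unadjusted limma p of 0.041 and an adjusted p of 0.33. Of all clones tested 14.7% had an unadjusted p under 0.05, so this p alone does not set the gene apart.

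The 2 dye orientations gave similar values for Anxa2, though those with sham in Cy3 were higher in 5 of 6 pairs (mean 0.34 against 0.20). On arrays with sham in Cy3 its values ran from -0.28 in C to 0.70 in A, and on those with sham in Cy5 from -0.37 in C to 0.48 in A. Both orientations had the same sign in 6 of 6 pairs. On the sham-sham arrays the gene lay between -0.43 on R2 and 0.26 on R5, and the value of R2 (rats A and E) is larger in size than those of pairs B, C and D. The sham-sham arrays have no dye swap, so any dye effect stays in their values.

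S100a11 had pair values of 0.54 in A, 0.16 in B, -0.39 in C, 0.18 in D, 0.43 in E and 0.78 in F. Pair C is again the only one well below 0, and F is the highest. The mean of 0.28 had an unadjusted 95% interval of 0.0025 to 0.56, an unadjusted limma p of 0.048 and an adjusted p of 0.34. The sham-sham arrays were narrower for this gene than for any other member, from -0.080 on R2 to 0.19 on R6.

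The value of S100a11 depended on the dye. The arrays with sham in Cy3 averaged 0.45 and those with sham in Cy5 0.11, and the dye effect, which is 0.5 times the difference within a pair, was 0.17 ± 0.13 (n = 6, adjusted p = 0.036 in limma). It was above 0 in 5 of 6 pairs, and in B and D the 2 arrays had opposite signs (0.455 and -0.13 in B, 0.40 and -0.051 in D). S100a10 had a dye effect of 0.14 ± 0.048 (n = 5, adjusted p = 0.035), while those of S100a4 (0.13, adjusted p = 0.14) and Anxa2 (0.070, adjusted p = 0.13) did not pass. Dye effects past the threshold were common, at 16.1% of the clones tested, and they cancel in the mean of a pair but not in a single array. The calls of S100a10 and S100a11 were not firm: that of S100a10 was lost without A, B, D, E or F (adjusted p from 0.0501 to 0.0733) and that of S100a11 without A, B, C or D (0.059 to 0.096).

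S100a10, the partner of annexin A2, had no common direction. Its pair values were 0.975 in A, 0.075 in B, -0.57 in D, -0.19 in E and 0.023 in F, and pair C had only the array with sham in Cy3, at -0.40. Pair A stands far above 0 with 1.11 and 0.84 on its arrays, and pair D as clearly below with -0.495 and -0.65. The mean of 0.063 had a 95% interval of -0.34 to 0.465 and an adjusted p of 0.86 (limma). Without pair A it was -0.17 and without pair D 0.22, so its sign follows which pairs are counted. On the 5 sham-sham arrays with a value S100a10 lay between 0.011 on R1 and 0.34 on R4. The value of R4 is larger in size than those of pairs B, E and F. The sham-sham arrays have no dye swap, so a dye effect does not cancel in them as it does in a pair value. S100a10 was above 0 on all 5, and its dye effect was 0.14. Over 815 clones the mean sham-sham value had r = 0.42 with the dye effect. How far the dye enters these values of S100a10 was not tested.

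The spread between pairs was wide for 3 of the members. The SD over pairs was 0.57 for S100a10, larger than for 99% of the clones tested, 0.40 for S100a11 (96.3%) and 0.37 for Anxa2 (94.5%), against a median SD of 0.168. That of S100a4 was 0.23 (74.9%). The duplicate spots of S100a10 differed by a median of 0.15 and at most 0.31, and in pairs A and D both dye orientations had the sign of the pair.

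**Figure D2:**
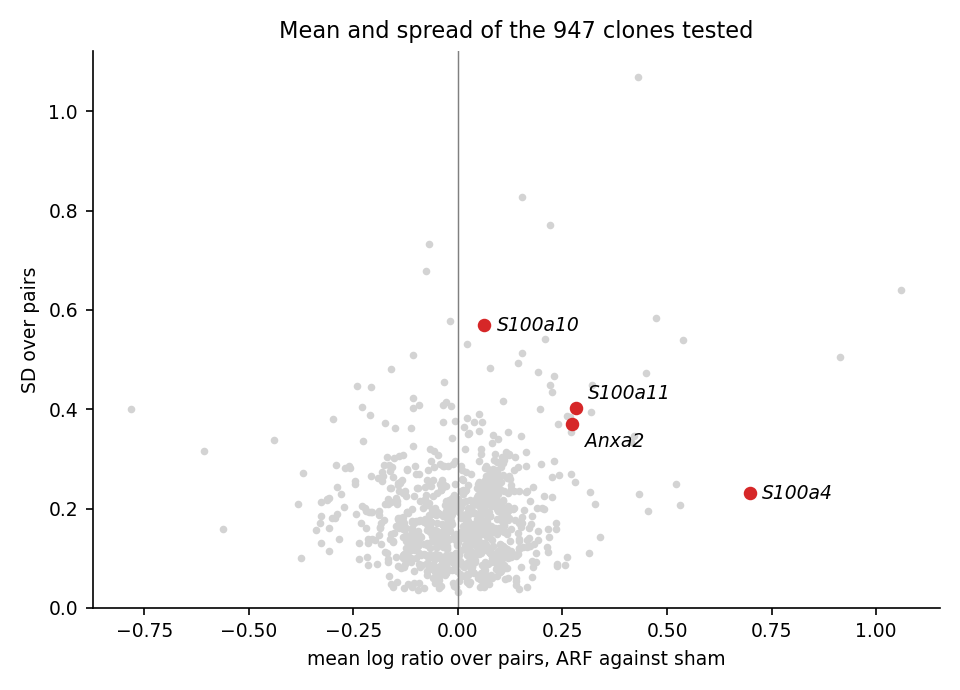
Mean log ratio of ARF against sham (horizontal) and SD over pairs (vertical) of each of the 947 clones tested, in grey, with the 4 genes in red. S100a4 combines a mean of 0.70 with an SD of 0.23, while S100a10 has a mean near 0 and an SD of 0.57.

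The sham-sham arrays link all sham rats, so for each gene the log ratios were also set out as 1 level per rat, by least squares, relative to the mean of the sham rats. For S100a11 the 6 sham rats lay within -0.053 and 0.071. The ARF rats were at 0.61 (A), 0.11 (B), -0.45 (C), 0.13 (D), 0.50 (E) and 0.79 (F), so 5 of 6 were above the highest sham rat and 1 was below the lowest. All 6 ARF rats lay outside the sham range in 5.13% of the 565 clones that could be set out in this way. The fit thus puts most of the differences between pairs in S100a11 on the ARF rats. Their levels had an SD of 0.445 against 0.059 among sham rats (0.39 against 0.088 with a dye term). The ARF rats are on no arrays but those of their pair, so their levels also take up any error of these arrays. With a dye term added, the sham range was -0.088 to 0.12 and 4 ARF rats were above it, 1 below, with rat D at 0.11 inside. In that fit at least 5 ARF rats were outside in 15.9% of clones, and all 6 in 3.89%.

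For Anxa2 the sham rats ran from -0.22 (C) to 0.21 (A). ARF rats A, B, E and F were above all of them at 0.80, 0.47, 0.41 and 0.60, D was among them at -0.099 and C was below at -0.54. Without a dye term, at least 5 ARF rats were outside the sham range in 15.2% of clones. With it, Anxa2 again had 4 ARF rats above and 1 below. Rat pair C was the lowest pair in both of its animals, since its sham rat was the lowest of the sham rats and its ARF rat the lowest of all 12. The rank of sham rat C is not firm. Only R5 joins it to the other sham rats, with spots at 0.43 and 0.099. With a dye term it was at -0.18, beside -0.17 for sham rat E.

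For S100a10 the sham rats ran from -0.38 (B) to 0.24 (E) and the ARF rats from -0.61 (D) to 1.12 (A). ARF rat A was above every sham rat, C and D were below every one, and B, E and F were among them. With a dye term the same ARF rats lay outside the sham range, which was then -0.22 to 0.17. Without a dye term sham rats A and D were at 0.15 and -0.032, so the fit puts the high value of pair A and the low value of pair D on their ARF rats. These rats are on no other arrays, so their levels also take up any error of the pair's arrays. For S100a4 the arrays joined 5 sham and 4 ARF rats: ARF rats A, E and F were at 0.99, 1.00 and 0.57, above all 5 sham rats (-0.25 to 0.26), and rat D, from 1 spot, was at -0.16. With a dye term the sham rats ran from -0.39 to 0.29, rats A, E and F were again above them, and rat D was at 0.057. Sham rat F was the lowest sham rat for S100a4, at -0.25, so the pair value of 0.82 is larger than the level of ARF rat F.

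**Figure D3:**
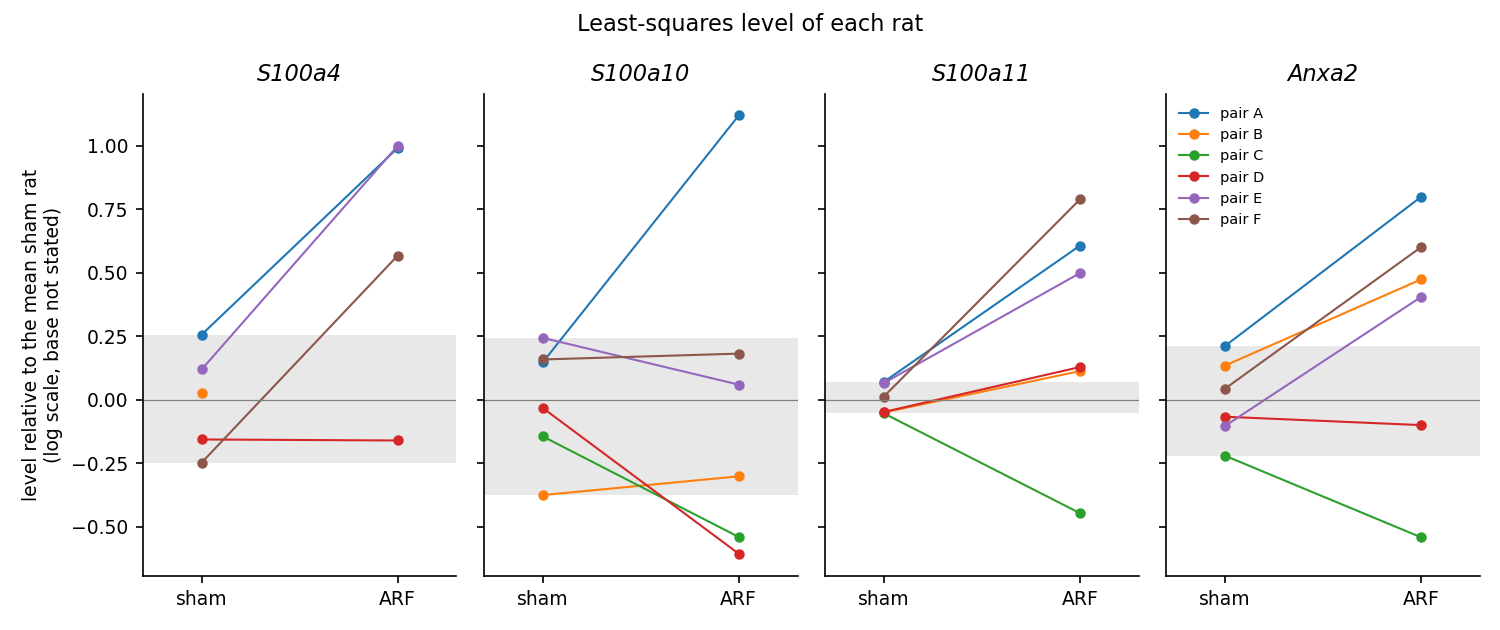
Least-squares level of each rat (log scale, base not stated) relative to the mean of the sham rats joined by the arrays, with lines joining the sham and ARF rat of a pair and a grey band over the range of the sham rats. The band is narrowest for S100a11, where 5 ARF rats lie above it and ARF rat C below. Rats B and C have no line for S100a4, because pair B has no value and sham rat C is not linked to the others.

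Members were compared with one another in the same pairs, which asks whether they differ in how far they depart from sham. S100a11 and Anxa2 had nearly equal log ratios: their difference was 0.0086 ± 0.17 (n = 6 pairs), with a 95% interval of -0.17 to 0.18, and it was -0.18 in B and 0.22 in F at the extremes (two-sided exact sign-flip permutation p = 0.938). S100a10 was lower than its partner Anxa2 in 4 of 5 pairs, with a mean difference of -0.33 ± 0.43 and an interval of -0.86 to 0.20 (exact permutation p = 0.188), and pair A was the exception at 0.39. S100a10 was lower than S100a11 in 4 of 5 pairs as well, by -0.35 ± 0.52 on average (exact permutation p = 0.188). Whether the complex partners S100a10 and Anxa2 differ in log ratio is not settled by these values. The interval includes 0, and the smallest exact permutation p that 5 pairs can give is 0.0625.

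S100a4 was above Anxa2 in 4 of 4 pairs, with a mean difference of 0.37 ± 0.23 (interval -0.0015 to 0.73), and above S100a11 in 4 of 4, with 0.36 ± 0.31 (exact permutation p = 0.125 for each). Against S100a10 it was above in 2 of 3 pairs (0.54 ± 0.69, exact permutation p = 0.5). The smallest p that 4 pairs can give is 0.125 and that of 6 pairs is 0.0312, and none of the 6 comparisons could have passed 0.05 after adjustment over all of them. Over the 6 comparisons the Benjamini-Hochberg adjusted values were 0.281 for 4 of them, 0.6 for S100a4 against S100a10 and 0.938 for S100a11 against Anxa2.

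Across pairs S100a11 and Anxa2 had r = 0.912 (n = 6 pairs), S100a10 and Anxa2 0.706 (n = 5) and S100a10 and S100a11 0.408 (n = 5). S100a10 and Anxa2 had the same sign in 4 of 5 pairs. These correlations describe few points that share arrays and rats, and S100a11 and Anxa2 were not each other's closest. By r over the same pairs, Anxa2 was 10th of 419 named clones for S100a11 and S100a11 12th for Anxa2, while for S100a10 Anxa2 was 120th and S100a11 184th of 468.

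The clones most like S100a11 over the 6 pairs were Tmsb10, an actin-binding thymosin (r = 0.975), the intermediate filament gene Vim (0.947), the secreted chaperone Clu (0.945), the amyloid precursor-like gene Aplp2 (0.936) and the mitochondrial phosphatase Ptpmt1 (0.935). Tmsb10 shared the size of the values too, from -0.34 in C to 0.96 in F, while Aplp2 varied only between -0.050 and 0.093. The clones most like Anxa2 were the kinase subunit Pik3r2 (0.991), the class I molecule RT1-CE1 (0.981), the myosin light chain Myl12b (0.968), the matrix protein Spon1 (0.962) and Clu (0.953). Over 5 pairs those most like S100a10 were the matricellular protein Sparc (0.99), the ribosomal protein Rpl35a (0.987), the proteasome subunit Psmb4 (0.986), the protease inhibitor Cst3 (0.984) and the lipid phosphatase Plpp1 (0.982). Sparc had 0.69 in A and -0.29 in D, and in pair C, which the correlation leaves out, -0.53 beside -0.40 for S100a10 on its single array. The median r of the candidates was -0.107 for S100a11, -0.056 for Anxa2 and 0.087 for S100a10, and none of these 14 genes passed the test for ARF against sham.

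Other S100 genes had few values. The array carries 5 of 15 listed, and 0 had both arrays in 4 pairs. S100a1, a muscle and tubule S100 protein, had 0.0315 in A, 0.0125 in E and 0.22 in F. S100b, known from glia, had -0.024, -0.025 and 0.12 in the same pairs, and S100g, the calbindin of calcium-transporting epithelia, 0.050, -0.17 and -0.040. On single arrays S100b had 0.336 in C, close to S100a4 there, and -0.041 in D, S100g had -0.16 in C and -0.17 in D, and S100a1 had 0.128 in B, -0.046 in C and 0.15 in D. S100a8 had no value on any array and its partner S100a9, with it the main S100 protein of neutrophils, had 1 ARF-sham array (0.0060) and 1 sham-sham array (0.26). In the pairs where S100a4 stood at 0.735 or above, the 3 S100 genes measured in them thus reached at most 0.22.

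Of the other annexins, 4 of 11 listed are on the array, and 0 of the 2 tested rose or fell. Anxa4, an epithelial annexin, averaged -0.015 ± 0.20 (n = 6, adjusted p = 0.92 in limma), from 0.25 in A to -0.38 in C. Anxa6, which binds endosomal membranes, averaged -0.10 ± 0.29 (n = 6, adjusted p = 0.64), with 0.34 in E, -0.37 in A, -0.38 in C and -0.26 in F. Anxa1, a mediator that dampens inflammation, had -0.067 in B, -0.0475 in E and 0.12 in F, and Anxa3 0.36 in A and 0.035 in E. On single arrays of pair D they had their lowest values, -0.49 for Anxa1 and -0.59 for Anxa3, and with single arrays kept the mean of Anxa3 was -0.067 in place of 0.197. Anxa1 also had 0.245 in A and -0.18 in C on single arrays. Pair C was low for Anxa4 and Anxa6 as it was for Anxa2, but pair A was high for Anxa4 and low for Anxa6.

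Genes whose proteins bind S100 proteins or annexin A2 had a median of 0.165 over 4 tested (of 17 listed, 7 on the array), with 4 means above 0 and 0 past the threshold, against a median of 0.015 and 54.1% above 0 over all clones. The tropomyosins Tpm3 and Tpm1 had 0.19 ± 0.091 (n = 5) and 0.18 ± 0.17 (n = 6), beta-actin (Actb) 0.15 ± 0.17 and the actin-binding cortactin (Cttn) 0.065 ± 0.069 (each n = 6), with adjusted p of 0.195, 0.27, 0.34 and 0.57 (limma). With single arrays kept, Tpm3 averaged 0.10 ± 0.22 (n = 6), with -0.31 in C. In the same way the untested Tpm2 averaged 0.21 (n = 5), and Tpm4, on single arrays only, -0.032 (n = 4). In plasminogen activation, which the S100a10 and annexin A2 complex promotes at the cell surface, Plat averaged 0.085 ± 0.26 (n = 4) and Plau -0.0074 ± 0.086 (n = 6), with 0 of 2 past the threshold. Of the other EF-hand genes, Pvalb averaged 0.12 ± 0.11 and Sparc -0.027 ± 0.41 (each n = 6), again with 0 of 2. In each of these lists a gene with too few pairs for a test had a mean larger in size. These were Tpm2 at 0.28 (n = 2), Mmp2 at 0.36 (n = 1) and Rcn2 at -0.43 (n = 1).

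Markers of other cells differed between the pairs too, and their part in the results was not tested. Of 10 fibroblast markers 8 are on the array and 4 were tested, and Col1a1 rose (0.53 ± 0.21, n = 4, adjusted p = 0.048 in limma). The median of the 4 tested was 0.66 in A, 0.40 in E and 0.41 in F, where S100a4 was highest. It was 0.12 in B, -0.34 in C and -0.062 in D, where only 2 of them each had both arrays. In pair C the fibroblast median was thus below 0 while S100a4 was above. Of those not tested, Acta2 had 0.047 in A, 0.059 in E and 0.11 in F, and Pdgfra 0.48, -0.062 and 0.10. On single arrays of B, where S100a4 has no value, Col3a1 had 0.89, Pdgfra 0.60, Dcn 0.44, Lum 0.36 and Acta2 0.053. On those of D, Col1a1 had 0.146, Pdgfra 0.135 and Acta2 -0.045. Vim alone, measured in every pair, had 0.69 in A, -0.64 in C and 0.52 in F. Of 12 macrophage and antigen-presenting cell markers 5 are on the array and 2 were tested, and the pair medians ran from -0.14 in C to 0.76 in F, from 1 or 2 genes each. These genes did not run together: Lgals3 had 0.98 in F, 0.48 in E and -0.52 in C, and RT1-Ba 0.54 in F, -0.22 in E and 0.245 in C. Lyz2, not tested, had 0.27 in A, -0.74 in E and -0.56 in F, and on single arrays -0.050 in B, 0.145 in C and -0.85 in D. C1qb, not tested either, had 0.39 in A, 0.12 in E and 0.21 in F, and -0.22 in C on 1 array.

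Markers of tubules had means mostly below 0. The 4 of 8 proximal tubule markers tested had means below 0 in 4 of 4, with a median of -0.21, and pair medians from -0.38 in E to 0.055 in C. The 4 of 6 thick limb and distal markers tested had a median of -0.275, with 3 means below 0, and pair medians from -0.46 in F to -0.18 in B, and 1 of them, Egf, fell (-0.34 ± 0.16, n = 6, adjusted p = 0.048). The 2 collecting duct markers tested (of 6) had a median of -0.081, and of 6 endothelial markers 1 is on the array and 0 could be tested. Pair C, where S100a11 and Anxa2 were lowest, was also the pair with the lowest fibroblast median and the highest proximal tubule median. That fibroblast median lies between Vim at -0.64 and Col3a1 at -0.031, so Vim sets most of it. Fibroblast markers with 1 array in C lay between -0.145 and -0.0060. The macrophage median of pair C was the lowest as well, but rests on Lgals3 below 0 and RT1-Ba above 0.

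A cDNA clone can also bind RNA of near copies of its gene. The RefSeq table lists 5 pseudogenes and 2 like-named genes of S100a11, 1 pseudogene of S100a10, 1 of Anxa2 and 0 of S100a4, and the arrays cannot tell them apart.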

How the data were processed

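The authors' deposited table holds normalized log ratios of 2 channels, from spots quantified in ImaGene 4.1, per the labels. Log base and direction are not given there. Every array has a mean of 0, and array medians lay between -0.042 and 0.029. The 1519 accessions listed on 2 rows lie 1152 rows apart, so these rows were averaged as 2 spots of 1 clone. The 2 arrays of a pair were then averaged, since the deposited dye swaps correlated positively (r from 0.196 to 0.58). The pairing comes from the labels, which name 1 sham and 1 ARF rat per pair. The sham-sham columns were read after exchanging adjacent blocks of 288 rows. In that order 81.2% of the cells of 31 ribosomal protein clones had a value, against 37.1% as deposited (ARF-sham arrays as deposited, 93%).

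The 6 pair values of each clone with both arrays in at least 4 pairs were tested against 0 with limma 3.58.1 (R 4.3.3, eBayes), with Benjamini-Hochberg adjustment over all clones. The procedure was also run on simulated data. Their values were drawn independently for each clone, so they hold no array or pair effects shared between clones. Differences between members were tested by sign flips over pairs. Of the clones, 1489 had 1 symbol, of which 1483 matched RefSeq (GRCr8), 32 had several and 783 none. Members, lists and tests were chosen with earlier results of these data known. Named were the members, all measured S100 and annexin genes, and the 5 clones most like each member with 5 or more pairs. Of the binding partners, plasminogen activation and other EF-hand genes, the tested ones were named, with Tpm4 and the untested ones with a mean larger in size. Cell markers were named in part, not by size of the mean. Alternatives changed the centring, the filters, the dyes, the moderation, the pairing and the pairs used.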

Additional observations from a re-analysis of the deposited data

Results flagged for a closer look

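The arrays with sham in Cy3 and those with sham in Cy5 gave different values for S100a10 and S100a11 under the same comparison. The dye effect, 0.5 times the difference within a pair, was 0.136 for S100a10 (n = 5 pairs, above 0 in 5, adjusted p = 0.035 in limma) and 0.168 for S100a11 (n = 6, above 0 in 5, adjusted p = 0.036). With 1 pair left out in turn, the dye effect of S100a10 ran from 0.118 to 0.15 and that of S100a11 from 0.144 to 0.209. No pair or array stood apart from the rest of its group by the gap to its neighbour in any of the 23 groups of values examined for the members and the other S100 and annexin genes, where chance would set apart about 5% of groups.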

How the results depend on the processing

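For S100a4 the mean was 0.56 with pairs on 1 array kept, 0.46 with only sham in Cy5 (adjusted p = 0.088), and 0.70 with a trended, robust moderation in limma (0.24) or no moderation (0.22), and it passed in none of these. Without pair B or D it stayed at 0.698 (adjusted p = 0.051 and 0.016), and with clones kept from 3 pairs on, an alternative chosen after the data were seen, it ran from 0.637 to 0.811 with 1 pair left out, not passing without A (0.686, adjusted p = 0.093), E (0.637, 0.11) or F (0.659, 0.12). With the pair as a replicate block over 12 arrays it was 0.60 (adjusted p = 0.0065), and 0.61 with a dye term. S100a11 and Anxa2 kept their sign and did not pass in any of 24 alternatives each, with lowest adjusted p of 0.054 and 0.060 without pair C, and means from 0.183 to 0.417 and from 0.21 to 0.392 with 1 pair left out. S100a10 turned to -0.013 with pairs on 1 array kept, -0.073 with only sham in Cy5, -0.012 in the block with a dye term and -0.013 with no replicate block on 12 rat levels, and ran from -0.165 to 0.222 with 1 pair left out. S100a11 minus Anxa2 was -0.090 with only sham in Cy5, and -0.033 to 0.046 with 1 pair left out. The cause of these turns was not tested.

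Clones past the threshold numbered 15 centred on medians, 5 with pairs on 1 array kept, 28 with only sham in Cy3, 17 with both spots required, 4 from 3 pairs on, 42 with the replicate block, 29 with a dye term added, 2 with no replicate block (of 565), and in limma 0 with trended, robust moderation (119 at an unadjusted p under 0.05) or unmoderated (129). With 1 pair left out they ran from 0 (without E or F, 68 and 59 at an unadjusted p under 0.05) to 19, or from 1 to 20 from 3 pairs on. Dye effects past the threshold ran from 55 to 175 with 1 pair left out, against 152 in all pairs (73 without C, 55 without D, 61 without E). With the sham-sham rows as deposited, the largest value in size was 0.84 for S100a4 and 1.04 for S100a10, on rows of other clones. S100a4 could not be tested with both spots required, in all 6 pairs, on rat levels or, from 4 pairs on, without A, C, E or F. The number of arrays limits the precision.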
